A study of Mus musculus with 12 samples.

Results

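A set of 8 genes known to be induced by glucocorticoids was followed in mouse kidney proximal tubule cells grown with dexamethasone, a synthetic glucocorticoid. They are Fkbp5, Tsc22d3, Sgk1, Errfi1, Klf9, Cebpd, Per1 and Zbtb16. Every probe of the array's annotation that carries 1 of these 8 symbols was taken, which gave 13 of the 45281 probes. Of these 13 probes, 10 were bright enough to test, and they stand for 7 of the 8 genes, among 19480 probes and 10335 named genes tested in all. The rule uses the symbols and no value of these arrays, but the 8 genes were chosen with earlier results of these data known.

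The cells, PKSV-PCT, come from the mouse proximal convoluted tubule and are immortalized, and here they made human SHBG, the protein that carries sex steroids in blood. The 4 groups of 3 Illumina Mouse WG-6 v2.0 arrays were S42L SHBG cells with 5α-dihydrotestosterone (DHT), wild-type SHBG cells with DHT, S42L SHBG cells with testosterone, and wild-type SHBG cells with testosterone. The S42L mutant has no measurable steroid binding, per the labels, so the comparison of the lines asks what steroid-binding SHBG changes in the cells. Each androgen was given at 100 nM for 24 h. All 4 groups shared a growth medium with dexamethasone at 5e-08 M, EGF at 10 ng/ml, insulin and triiodothyronine. A period of 3 days without steroids is also labelled, as if it came after the hormone, and whether dexamethasone was left out then is not said. No group went without androgen or is labelled as grown without dexamethasone, so induction by either steroid was not measured. Both transgenes were carried in pRC/CMV, and clones came from limiting dilution and were chosen for secreted SHBG. SHBG variant and clone therefore cannot be told apart. The DHT arrays filled 1 chip and the testosterone arrays another, with S42L cells in positions A to C and wild-type cells in positions D to F of both, so line and position cannot be told apart either. Whether the replicates come from separate cultures is not stated, and the p-values rest on a spread between arrays that may be technical.

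Dexamethasone crosses the cell membrane and binds the glucocorticoid receptor, a transcription factor held in the cytoplasm by Hsp90 and its cochaperones. The bound receptor enters the nucleus, where it raises some genes by binding DNA directly and lowers others, many of them inflammatory, by interfering with NF-κB and AP-1. In the kidney the same DNA elements also serve the mineralocorticoid receptor, and FKBP5, TSC22D3, SGK1 and ZBTB16 are known androgen-induced genes in human prostate cells.

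The DNA element the receptor prefers is a palindrome, and its best-known form (AGAACA, any 3 bases, then TGTTCT) was searched for in RefSeq promoter windows of build GRCm38.p6 (250 bases before to 50 bases after an annotated start). It reads the same on both strands. The 6-base element TGTTCT, which makes up either side of the palindrome, was searched for on both strands (read as AGAACA where it lies on the other one), so it also counts each side of a full palindrome. Windows were given for 6 of the 8 genes, 15 windows in all, and not for Zbtb16 or Cebpd. The palindrome lay in 1 of the 15, a window of Sgk1, and in 3 of all 32851 windows (0.00913%). The 6-base element lay in 4 of the 15 windows, from Sgk1 and Tsc22d3, while 19% of all windows held it. Those 4 windows are shown, each 5′ to 3′ on the strand of its gene, with the palindrome and the 6-base elements in capitals. A match is a run of letters and not a measured binding site.
Sgk1, chr10:21993640-21993939, plus strand: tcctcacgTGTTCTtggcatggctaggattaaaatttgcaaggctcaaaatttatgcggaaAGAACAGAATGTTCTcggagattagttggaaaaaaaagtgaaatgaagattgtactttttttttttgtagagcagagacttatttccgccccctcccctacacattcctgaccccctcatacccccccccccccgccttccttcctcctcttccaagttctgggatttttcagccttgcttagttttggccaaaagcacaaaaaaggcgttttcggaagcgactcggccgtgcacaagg
Sgk1, chr10:21881934-21882233, plus strand: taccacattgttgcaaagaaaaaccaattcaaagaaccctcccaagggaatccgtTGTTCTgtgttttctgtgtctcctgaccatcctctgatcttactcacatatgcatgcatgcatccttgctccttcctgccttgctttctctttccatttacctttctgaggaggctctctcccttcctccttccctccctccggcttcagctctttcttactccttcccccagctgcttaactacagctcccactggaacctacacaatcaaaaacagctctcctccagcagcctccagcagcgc
Sgk1, chr10:21991973-21992272, plus strand: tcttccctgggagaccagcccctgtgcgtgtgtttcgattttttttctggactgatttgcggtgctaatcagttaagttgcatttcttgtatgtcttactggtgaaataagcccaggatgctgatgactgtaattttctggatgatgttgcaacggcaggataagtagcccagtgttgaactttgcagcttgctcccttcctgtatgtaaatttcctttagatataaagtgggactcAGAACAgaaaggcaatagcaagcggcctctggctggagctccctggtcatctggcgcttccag
Tsc22d3, chrX:140600473-140600772, minus strand: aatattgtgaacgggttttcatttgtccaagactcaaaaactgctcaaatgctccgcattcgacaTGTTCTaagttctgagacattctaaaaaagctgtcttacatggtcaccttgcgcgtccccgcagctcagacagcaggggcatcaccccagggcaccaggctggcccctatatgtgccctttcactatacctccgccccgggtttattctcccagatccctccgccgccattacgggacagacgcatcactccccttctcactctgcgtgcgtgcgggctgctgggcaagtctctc
The palindrome in the first Sgk1 window begins at position -189, counted from 0 at that annotated start, and its capitals run for 15 bases. A separate 6-base element stands near the left end of the same window. The single elements in the other windows begin at -195, at -13 and at -185 in the order shown. The windows of Fkbp5, Per1, Klf9 and Errfi1 held neither form. These windows cover only the stretch around annotated starts, and no match in them says nothing of elements elsewhere.

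Of the 8 genes, 5 differed between the lines over both androgens, with 4 higher and 1 lower in S42L cells. Errfi1, Tsc22d3, Sgk1 and Cebpd were higher, by 1.23-fold to 1.53-fold, and Klf9 was 1.48-fold lower. Fkbp5 and Per1 were tested and not called, and Zbtb16 was not above background on any array. The call rule was an adjusted p under 0.05 in limma with Benjamini-Hochberg adjustment over all 19480 probes tested. By that rule 40.1% of all named genes tested were called between the lines, 20.6% higher and 19.5% lower in S42L cells, so a call was common on these arrays. Of the probes called, 49.1% were higher in S42L cells, and 65.6% when median scaling replaced quantile normalization. The median log2 difference (S42L minus wild type) was 0.30 over the 7 genes tested and -0.01 over all named genes. All 7 were detected on 12 of 12 arrays, so none of them was tested through 1 group alone. In RNA from whole cultures, fewer cells expressing a gene and less RNA per cell cannot be told apart.

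**Figure D1:**
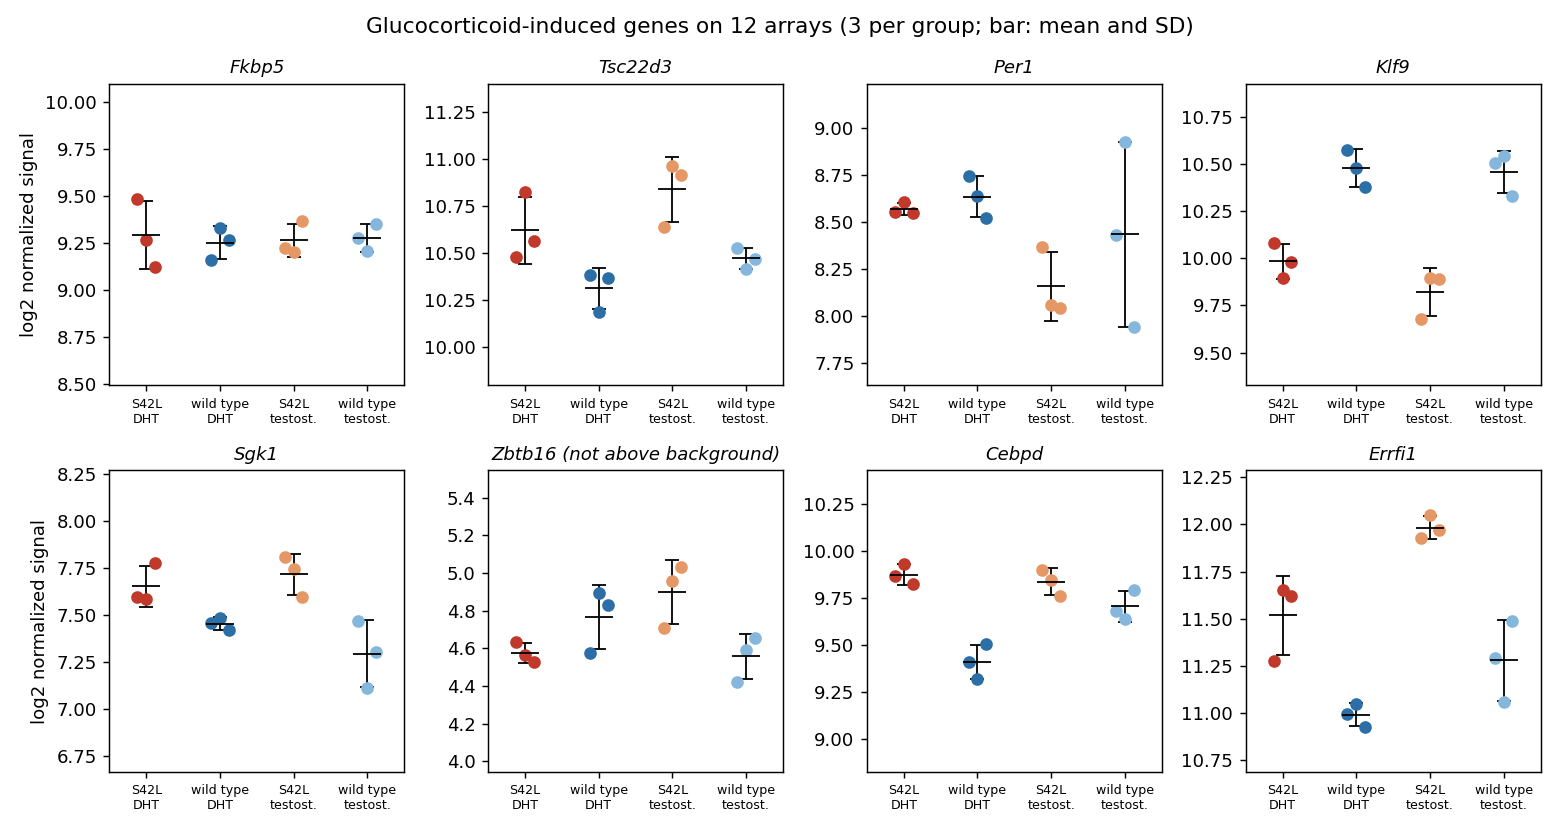
Log2 normalized signal (vertical axis) of the brightest probe of each of the 8 genes on every array, with S42L cells left of wild-type cells under each androgen. Each point is 1 array and each bar a group mean with its SD over 3 arrays. Klf9 lies lower in all S42L groups, Sgk1 and Errfi1 lie higher in S42L cells under each androgen, and the Zbtb16 panel shows values that are not above background. Panels have their own vertical ranges, all of equal span.

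Errfi1 encodes MIG-6, an inhibitor that binds and blocks the EGF receptor and ErbB2 kinases. Its log2 signals were 11.28, 11.65 and 11.62 in S42L cells under DHT, against 10.99, 11.05 and 10.93 in wild-type cells under DHT. Under testosterone they were 11.93, 12.05 and 11.97 in S42L cells, against 11.29, 11.06 and 11.49 in wild-type cells. The lines did not overlap under either androgen, while the lowest S42L array under DHT fell within the range of the wild-type arrays under testosterone. Errfi1 was higher in S42L cells over both androgens by 0.62 ± 0.09 (log2 difference ± SE, 6 arrays against 6), or 1.53-fold (limma adjusted p = 0.000237). The difference was 0.53 ± 0.13 under DHT (adjusted p = 0.012) and 0.70 ± 0.13 under testosterone (adjusted p = 0.00221). Without S42L DHT replicate 2 the DHT call ended, at 0.46 (adjusted p = 0.053). In order of level, S42L cells under testosterone averaged 11.98 ± 0.06, S42L cells under DHT 11.52 ± 0.21, wild-type cells under testosterone 11.28 ± 0.22 and wild-type cells under DHT 10.99 ± 0.06 (log2 signal, SD, n = 3 each). Only the neighbours in the middle of that order had overlapping arrays.

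Tsc22d3 encodes GILZ, a leucine zipper protein that restrains NF-κB and AP-1 and carries part of the anti-inflammatory action of glucocorticoids. Its brightest probe, designed on NM_001077364, had log2 signals of 10.48, 10.82 and 10.56 in S42L cells under DHT, against 10.38, 10.19 and 10.37 in wild-type cells under DHT. Under testosterone the signals were 10.64, 10.96 and 10.91 in S42L cells, against 10.53, 10.42 and 10.47 in wild-type cells. Within each androgen every S42L array lay above every wild-type array, by a narrow margin. Over both androgens Tsc22d3 was higher in S42L cells by 0.34 ± 0.09, or 1.26-fold (limma adjusted p = 0.0086). Under DHT the difference was 0.31 ± 0.12 (adjusted p = 0.0914). Under testosterone it was 0.37 ± 0.12 and only just called (adjusted p = 0.0477). That call ended in 13 of 19 alternatives, with adjusted p between 0.0253 and 0.705 over all 19. They include the leave-outs of 9 of the 12 arrays, the authors' processed values (0.0504), all probes tested (0.0735) and the replicate number as a block (0.0681).

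Other probes of Tsc22d3, dim ones, did not give the same picture. A probe on NM_010286, detected on 10 of 12 arrays, differed by 0.34 ± 0.24 over both androgens (limma adjusted p = 0.289). A probe on AF201289, detected on 9 arrays, differed by -0.10 ± 0.15 (adjusted p = 0.648), with 0.27 ± 0.21 under DHT and -0.46 ± 0.21 under testosterone (adjusted p = 0.388 and 0.128). Neither was called in any comparison. With the mean of the 3 probes in place of the brightest, Tsc22d3 differed by 0.20 over both androgens (adjusted p = 0.181), so its call rests on the probe on NM_001077364.

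Sgk1 encodes a kinase that keeps epithelial sodium channels at the cell surface by phosphorylating the ubiquitin ligase Nedd4-2. Its log2 signals were 7.60, 7.58 and 7.78 in S42L cells under DHT, against 7.46, 7.49 and 7.42 in wild-type cells under DHT. With testosterone they were 7.81, 7.74 and 7.60 in S42L cells, against 7.47, 7.11 and 7.30 in wild-type cells. All 6 S42L arrays lay above all 6 wild-type arrays. Sgk1 was higher in S42L cells over both androgens by 0.31 ± 0.08, or 1.24-fold (limma adjusted p = 0.00888). The difference was 0.20 ± 0.11 under DHT (adjusted p = 0.237) and 0.42 ± 0.11 under testosterone (adjusted p = 0.0181). The testosterone call ended without S42L testosterone replicate 1 (0.0715), without S42L testosterone replicate 2 (0.0623) and without wild-type testosterone replicate 2 (0.0542). The difference between the androgens in this contrast was itself -0.22 ± 0.16 and not called (adjusted p = 1). Sgk1 is the gene whose window holds the palindrome shown above.

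Klf9, a Krüppel-like transcription factor, was the member that was lower. Its log2 signals were 10.08, 9.89 and 9.98 in S42L cells under DHT, against 10.58, 10.48 and 10.38 in wild-type cells under DHT. The testosterone arrays read 9.68, 9.90 and 9.89 in S42L cells, against 10.50, 10.54 and 10.33 in wild-type cells. Every S42L array lay below every wild-type array. Klf9 was lower in S42L cells over both androgens, at -0.56 ± 0.08 or 1.48-fold lower (limma adjusted p = 0.000108). It was also lower under DHT, at -0.49 ± 0.11 (adjusted p = 0.00622), and under testosterone, at -0.64 ± 0.11 (adjusted p = 0.00122). The 3 calls held in every alternative run, with adjusted p of at most 0.0307.

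Cebpd encodes C/EBPδ, a transcription factor of the acute phase response and of early fat cell differentiation. Its log2 signals were 9.87, 9.93 and 9.82 in S42L cells under DHT, against 9.41, 9.32 and 9.50 in wild-type cells under DHT. The corresponding testosterone values were 9.90, 9.85 and 9.76 in S42L cells, against 9.68, 9.64 and 9.79 in wild-type cells. The lines stood apart under DHT, while under testosterone 1 wild-type array lay above the lowest S42L array. Cebpd was higher in S42L cells over both androgens by 0.30 ± 0.07, or 1.23-fold (limma adjusted p = 0.00424). The difference was 0.46 ± 0.10 under DHT (adjusted p = 0.00429) and 0.13 ± 0.10 under testosterone (adjusted p = 0.361). The test of the difference between these gave 0.33 ± 0.14 (limma adjusted p = 1). A second probe of Cebpd was detected on 0 of 12 arrays and was not tested.

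Fkbp5 encodes FKBP51, an Hsp90 cochaperone that lowers the receptor's affinity for hormone and so forms a feedback on it. Its log2 signals were 9.48, 9.26 and 9.12 in S42L cells under DHT, against 9.16, 9.33 and 9.27 in wild-type cells under DHT. Under testosterone it read 9.22, 9.20 and 9.37 in S42L cells, against 9.28, 9.21 and 9.35 in wild-type cells. The 4 groups overlapped throughout. The difference over both androgens was 0.01 ± 0.08, with a 95% interval of -0.16 to 0.18 (limma adjusted p = 0.924). A difference of the size seen in Errfi1 or Klf9 lies outside that interval.

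Per1, a repressor of the circadian clock, varied more between replicates. On its brightest probe the log2 signals were 8.55, 8.61 and 8.55 in S42L cells under DHT, against 8.74, 8.64 and 8.52 in wild-type cells under DHT. Under testosterone they were 8.37, 8.06 and 8.04 in S42L cells, against 8.43, 8.92 and 7.94 in wild-type cells. The wild-type testosterone arrays held both the highest and the lowest of the 12 values. Per1 differed by -0.17 ± 0.14 over both androgens, with a 95% interval of -0.47 to 0.13 (limma adjusted p = 0.361). Leaving out the array with the lowest value, wild-type testosterone replicate 3, gave -0.29 over both androgens (adjusted p = 0.04) and -0.52 under testosterone (adjusted p = 0.0295). A second probe on the same transcript differed by -0.15 ± 0.13 (adjusted p = 0.383), and another probe was detected on 0 of 12 arrays.

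Zbtb16 encodes PLZF, a zinc-finger repressor. Its probe was detected on 0 of 12 arrays, with raw signals of 109.1 to 145.8 and a lowest detection p of 0.0545, so it was not tested. Array medians over all probes ran from 116.5 to 139.8.

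**Figure D2:**
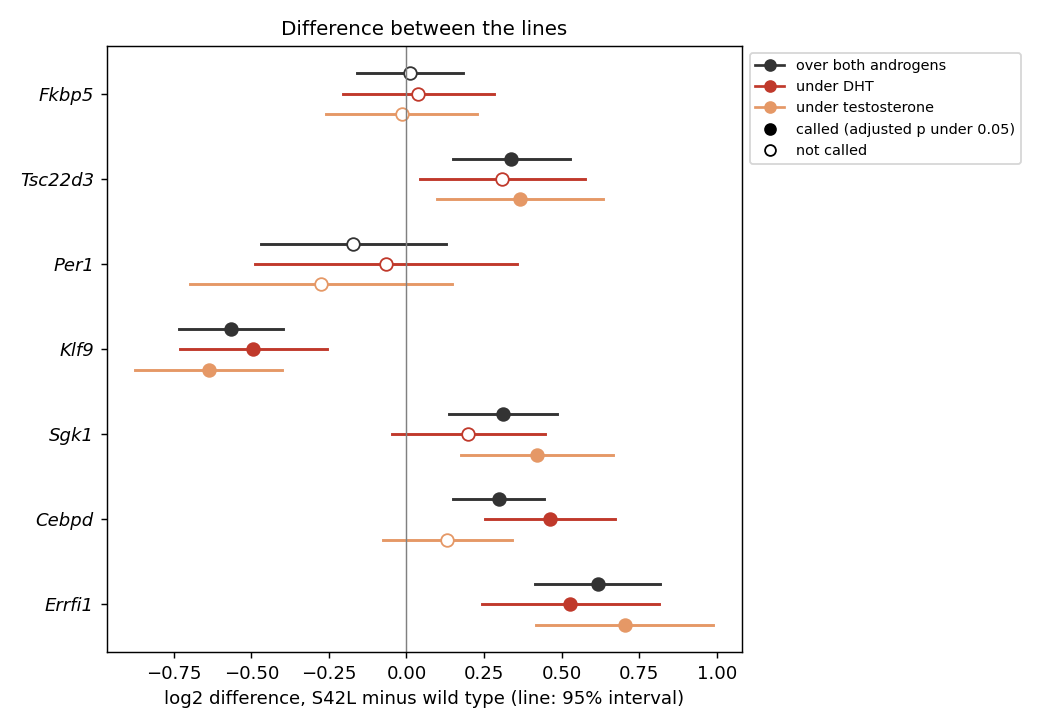
Log2 difference between the lines, S42L minus wild type (horizontal axis), for the 7 genes tested, over both androgens (6 arrays against 6), under DHT and under testosterone (3 against 3). Lines are 95% intervals from limma, and filled points have an adjusted p under 0.05. Klf9 lies left of 0 in all 3 rows (-0.56, -0.49 and -0.64), Errfi1 lies right of it (0.62, 0.53 and 0.70), and Fkbp5 spans 0.

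Within a single androgen the counts were smaller. Under DHT 3 of the 7 genes were called (Cebpd and Errfi1 higher, Klf9 lower in S42L cells), where 25.1% of all named genes were (13.3% higher and 11.8% lower). Under testosterone 4 were called (Errfi1, Sgk1 and Tsc22d3 higher, Klf9 lower), where 25.9% of all named genes were (14.1% higher and 11.8% lower). The testosterone count fell to 2 when S42L testosterone replicate 2 or wild-type testosterone replicate 2 was left out. Klf9 and Errfi1 were called in the same direction under each androgen, as were 18.6% of all named genes. The 6 S42L and 6 wild-type arrays did not overlap for Sgk1 and Klf9, and 22.7% of all named genes shared that property.

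DHT and testosterone were compared within each line, where chip and androgen cannot be told apart. None of the 7 genes was called in S42L cells, where 0.281% of all named genes were called, or in wild-type cells, where 0.0677% were. At an unadjusted p under 0.05 there was 1 in S42L cells (11.9% of all named genes) and there were 2 in wild-type cells (10.3%). Errfi1 was the one in S42L cells, with a log2 difference (DHT minus testosterone) of -0.47 ± 0.13 and a 95% interval of -0.75 to -0.18 (limma adjusted p = 0.143). In wild-type cells Errfi1 stood at -0.29 ± 0.13 (limma adjusted p = 0.412). For this gene all 3 DHT arrays lay below all 3 testosterone arrays in both lines. The same held for Tsc22d3 and Cebpd in wild-type cells. The share of all named genes with such a 3 against 3 separation, here or between the lines, was not computed. Such a separation is therefore no support for a difference. Cebpd was the other gene at an unadjusted p under 0.05 in wild-type cells, at -0.29 ± 0.10 (limma adjusted p = 0.24), against 0.04 ± 0.10 in S42L cells (adjusted p = 0.906). Per1 passed neither threshold in S42L cells, although its 3 DHT arrays there all lay above its 3 testosterone arrays, at 0.41 ± 0.19 (limma adjusted p = 0.399). The remaining differences ran from -0.22 for Tsc22d3 in S42L cells to 0.20 for Per1 in wild-type cells.

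Whether the difference between the lines was itself different under the 2 androgens was tested as an interaction. None of the 7 genes was called (0.00968% of all named genes were), and Cebpd was the only one at an unadjusted p under 0.05 (4.08% of all named genes). The single gene called on the array was Egln3, a prolyl hydroxylase of the oxygen-sensing pathway and no member of the set, at 1.63 ± 0.14 (limma adjusted p = 0.00135). Intervals for a 3 against 3 contrast reached 0.316 log2 units to either side in the median probe and 0.446 for the interaction, so differences of the size seen for Cebpd lie near the limit of this design.

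**Figure D3:**
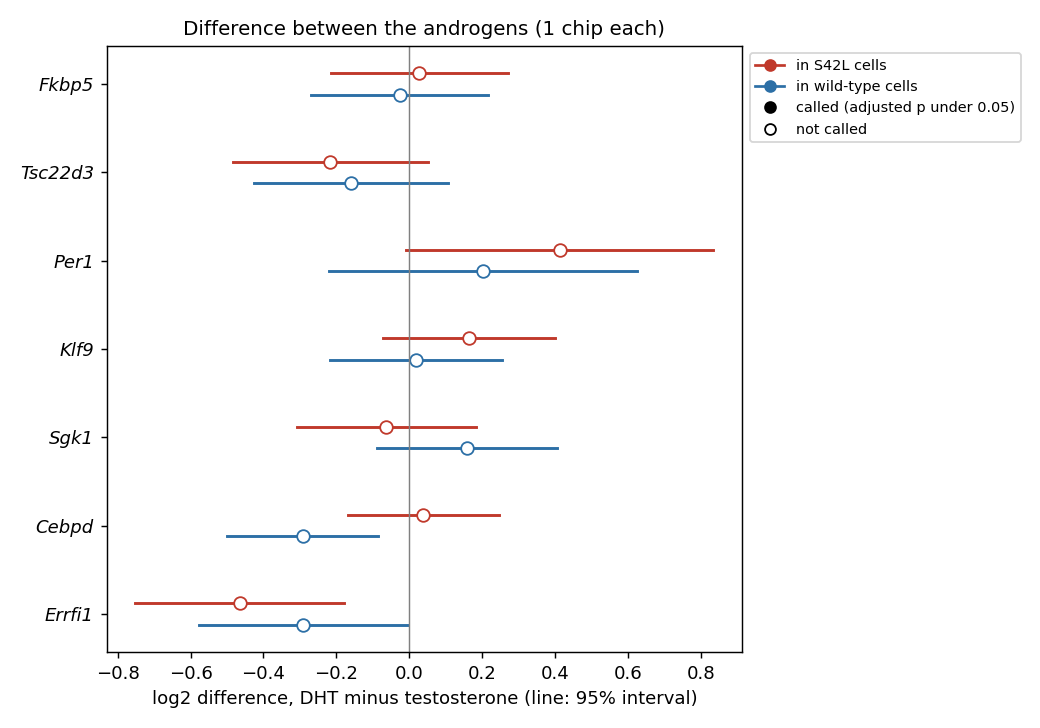
Log2 difference between the androgens, DHT minus testosterone (horizontal axis), in S42L and wild-type cells for the 7 genes tested, with 95% intervals from limma (3 arrays against 3). No point is filled, since none had an adjusted p under 0.05. Errfi1 lies left of 0 in both lines (-0.47 and -0.29) and Cebpd in wild-type cells alone (-0.29).

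The rest of the pathway was read from lists. The receptors themselves gave little signal. Nr3c1, the glucocorticoid receptor, was detected on 2 of 12 arrays, Nr3c2, the mineralocorticoid receptor, on 1 and Pgr, the progesterone receptor, on 0, so none was tested. Nr3c1 has 1 probe on the array, and Nr3c2 and Pgr have 2 each.

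Of 16 measured receptor chaperones and coregulators, none was higher, 4 were lower and 12 were not called in S42L cells over both androgens. Of all named genes, 20.6% were higher and 19.5% lower, so 4 of 16 lower is near that share. The list median was -0.13 (-0.08 with median scaling or without wild-type testosterone replicate 2). Those called were chaperones. Hspa4, of the Hsp70 family, stood at -0.57 ± 0.09 (limma adjusted p = 0.000325), and Hsp90aa1, the stress-induced Hsp90, at -0.51 ± 0.08 (adjusted p = 0.000355). Ppid, the Hsp90-bound cyclophilin 40, stood at -0.46 ± 0.07 (adjusted p = 0.000239). Fkbp4, whose product FKBP52 competes with FKBP51 for Hsp90 and favours hormone binding, stood at -0.31 ± 0.07 (adjusted p = 0.00306). Fkbp4 and Fkbp5 thus had different outcomes in the test, although the difference between them was not tested. In the list of glucocorticoid activation and export, 3 genes were measured (Hsd11b1, Hsd11b2 and Srd5a3) and none was called. The export genes Abcb1a and Abcb1b were detected on 1 and 0 of 12 arrays and not tested, so export was not measured. Hsd11b1, which regenerates active glucocorticoid, differed by -0.02 ± 0.12 (adjusted p = 0.895), and Hsd11b2, which inactivates it, by -0.05 ± 0.24 (adjusted p = 0.891). Under DHT they stood at -0.31 ± 0.17 and -0.31 ± 0.34, and under testosterone at 0.26 ± 0.17 and 0.20 ± 0.34, none of them called. The probes read, the brightest of 4 for Hsd11b1 and of 2 for Hsd11b2, were dim and detected on 11 of 12 arrays. The other Hsd11b2 probe was detected on 12 arrays and was not read.

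Other genes known to be induced by glucocorticoids moved in both directions. Of 30 measured, 10 were higher, 5 lower and 15 not called in S42L cells, with a median of 0.08. That median was 0.028 without S42L DHT replicate 1, 0.050 without wild-type DHT replicate 3, 0.032 without wild-type testosterone replicate 2, 0.051 with an offset of 50, 0.022 with the stricter filter and 0.18 with median scaling. Scnn1a, the alpha subunit of the epithelial sodium channel, was undetected on 5 of 6 wild-type arrays and detected on all 6 S42L arrays, and was at least 5.70-fold higher (limma adjusted p = 1.77e-08). Such a bound is printed instead of the fitted change where no array of some group detected the probe. Scnn1a passed the detection filter of at least 3 arrays only through S42L cells, so its p-value is no independent support. Lcn2, the iron-siderophore carrier lipocalin-2, was higher at 1.57 ± 0.08 (adjusted p = 3.3e-08), and Mt2, a metallothionein, at 1.16 ± 0.12 (adjusted p = 1.11e-05). Lower genes were led by Fam107a, an actin-associated protein gene, at -1.15 ± 0.14 (adjusted p = 3.84e-05), Ndrg2, at -1.09 ± 0.09 (adjusted p = 2.96e-06), and Irs2, an insulin receptor substrate, at -0.57 ± 0.13 (adjusted p = 0.00495). The list counts were 10 higher and 2 lower under DHT, and 8 higher and 6 lower under testosterone. Of all named genes, 13.3% were higher and 11.8% lower under DHT, and 14.1% higher and 11.8% lower under testosterone.

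Measured genes known to be repressed by glucocorticoids were mostly lower in S42L cells. This list, like the others, was chosen with earlier results of these data known, so its counts are no independent test. Of 12 measured, 10 were lower, none was higher and 2 were not called, with a median of -0.68. A further 7 genes of the list were too dim to test. Vcam1, a leukocyte adhesion molecule, stood at -2.07 ± 0.11, or 4.20-fold lower (limma adjusted p = 4.22e-08). The chemokine Cxcl2 stood at -0.98 ± 0.10 (adjusted p = 9.47e-06), and the chemokine Ccl20, undetected on 4 of 6 S42L arrays, was at least 1.72-fold lower (adjusted p = 8.27e-05). Ccl20 passed the detection filter only with its wild-type arrays. The 2 not called were the protease gene Mmp9, at -0.39 ± 0.18 (adjusted p = 0.11), and the cytokine Il11, at 0.20 ± 0.20 (adjusted p = 0.462). Under DHT 9 of the 12 were lower and under testosterone 8, where 11.8% of all named genes were lower under each androgen. Over the 18 alternatives run for the lists, the count over both androgens lay between 9 and 11, and between 9 and 12 higher with 5 or 6 lower for the induced list. Beside these counts, 20.6% of all named genes were higher and 19.5% lower in S42L cells over both androgens.

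Among 16 paralogs of the 8 genes, 2 were higher, 4 lower and 10 not called, with a median of -0.03. For all named genes the shares were 20.6% higher and 19.5% lower. The balance of this list was not stable: 5 were higher and 3 lower with an offset of 50, 4 and 3 with median scaling, and 4 and 4 without wild-type testosterone replicate 2. Its median lay between -0.04 and 0.07 over the alternatives. It was positive with median scaling (0.065) and with the stricter filter (0.024). It was also positive without S42L DHT replicate 2 or 3, wild-type DHT replicate 2, S42L testosterone replicate 2 or wild-type testosterone replicate 3. Klf4, a Krüppel-like factor of epithelial differentiation, was higher at 0.70 ± 0.18 (limma adjusted p = 0.00799), and Klf6 at 0.39 ± 0.08 (adjusted p = 0.00229), both against the direction of Klf9. Cebpg was lower at -0.40 ± 0.07 (adjusted p = 0.000997), against the direction of Cebpd. Fkbp4, given above, was lower as well, and Per3, a clock gene undetected on 5 of 6 S42L arrays, was at least 1.18-fold lower (adjusted p = 0.0178). Per3 passed the detection filter only with its wild-type arrays, so its p-value is no independent support. A list of Sgk1 and Errfi1 partners, substrates and EGF receptor ligands had 10 measured genes. Of these, 5 were higher, 2 lower and 3 not called, beside the same shares of all named genes. The median of this list was 0.21 (0.34 with the stricter filter). The higher ones included Scnn1a, Ndrg1, an Sgk1 substrate, at 0.57 ± 0.10 (adjusted p = 0.000541), and Erbb2, a kinase that MIG-6 inhibits, at 0.56 ± 0.08 (adjusted p = 0.000194). The lower ones were Hbegf, a ligand of the EGF receptor, at -1.20 ± 0.09 (adjusted p = 6.43e-07), and the scaffold gene Slc9a3r2, at -0.59 ± 0.07 (adjusted p = 3.9e-05). Scnn1a, Fkbp4, Cebpb and Per2 each stand in more than 1 list.

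**Figure D4:**
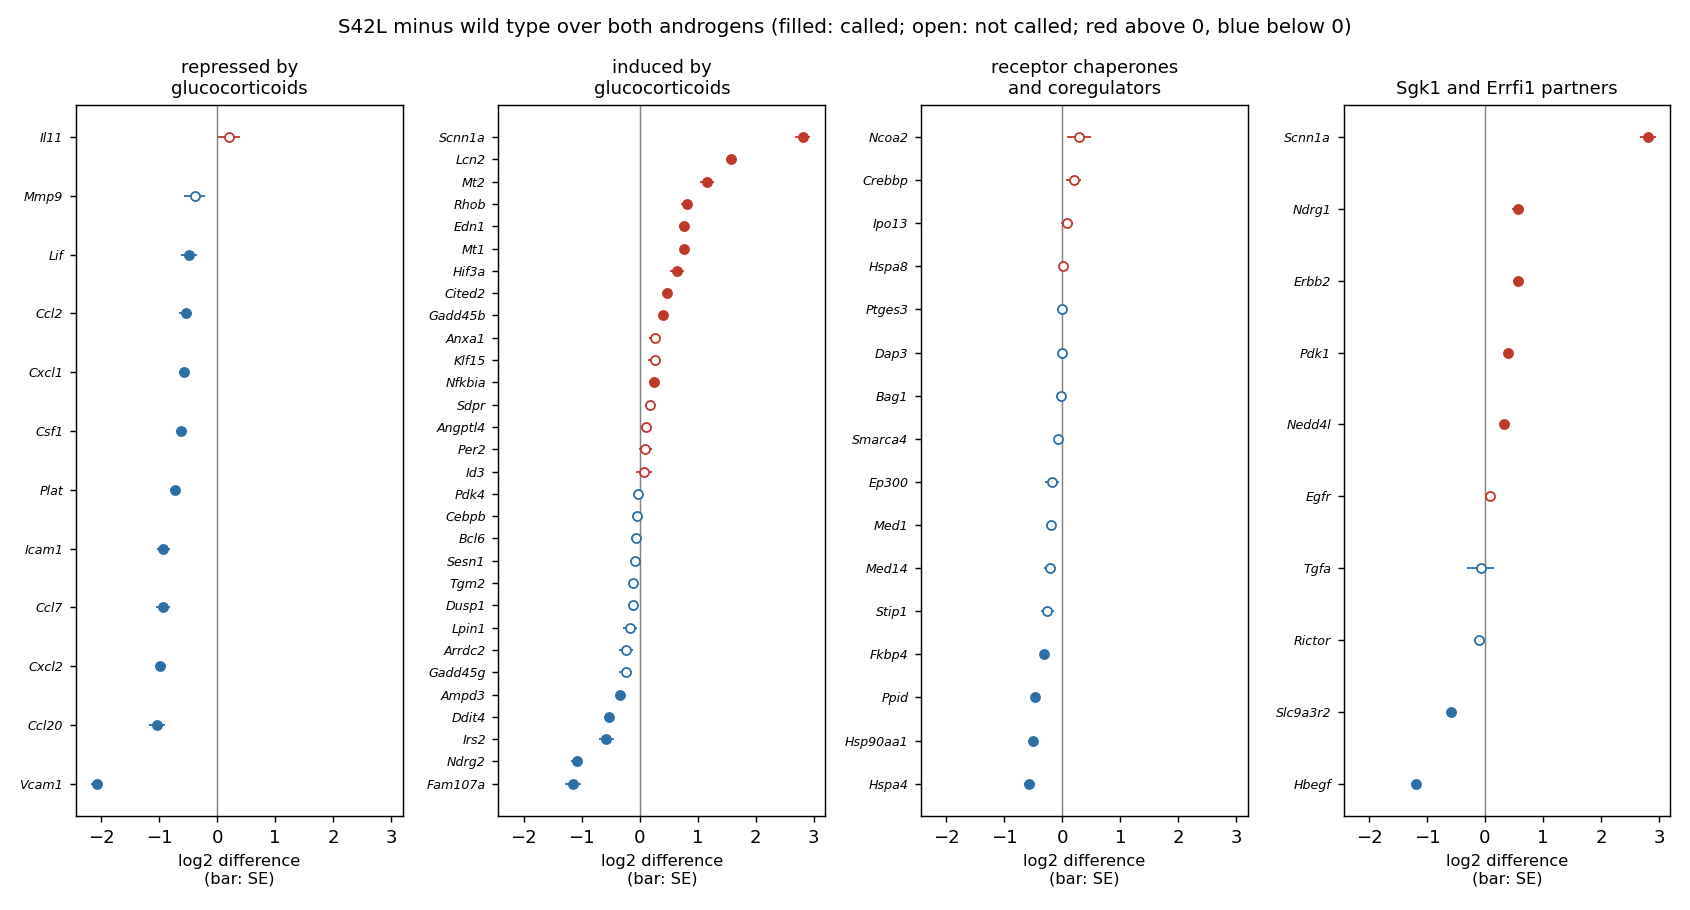
Log2 difference between the lines over both androgens, S42L minus wild type (horizontal axis), for every measured gene of 4 lists, with SE bars (6 arrays against 6). Filled points have an adjusted p under 0.05, red above 0 and blue below. In the repressed list 10 of 12 points are filled blue, from Lif to Vcam1, while the induced list holds 10 red and 5 blue filled points. Scnn1a, Ccl20, Klf15 and Crebbp are drawn at their fitted values, which are no bounds.

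Genes of like pattern were sought for the 5 called members, as those with the smallest root mean square difference from the member over the 12 arrays, each gene centred on its own mean, among 10328 other named genes. For Errfi1 these were Scin at 0.0947 log2 units, Hnf4a at 0.112 and Arhgap24 at 0.116, where Errfi1 itself varied by 0.386 around its mean. For Klf9 they were Yrdc at 0.0847, Nxt1 at 0.0931 and Dhps at 0.0942, where Klf9 varied by 0.302. Tsc22d3 was most like AW549877 at 0.0845, and Sgk1 most like Srpk1 at 0.0879. Cebpd was most like Tmbim4 at 0.0818. Tsc22d3 itself varied by 0.225, Sgk1 by 0.192 and Cebpd by 0.192. Relative to the member's own spread, these matches were looser than those of Errfi1 and Klf9. The lines differ in many genes, and the 12 arrays share that contrast.

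The labelled cell type was read from markers. Of 14 proximal tubule markers named in the probe table, 8 were measured, 7 of them higher and 1, Pdzk1, lower in S42L cells. Cubn, Slc34a1, Slc5a1, Slc22a6 and Slc22a8, defining transporters and receptors of that segment in vivo, were detected on 0 of 12 arrays. The summed signal of the list above the array median was 9472.3 to 12485.8 in S42L cells under DHT, against 5088.3 to 6562.7 in wild-type cells under DHT. Under testosterone it was 13241.8 to 14780.1 in S42L cells, against 5889.3 to 8013.5 in wild-type cells. Among other cell types, 1 of 2 measured fibroblast markers (Dcn, at 4.79 ± 0.10), 1 of 2 endothelial (Egfl7), 1 of 1 immune (Csf1r), 1 of 2 podocyte (Synpo) and 2 of 6 distal tubule markers (Umod and Scnn1a) were higher in S42L cells. The other measured endothelial marker, Kdr, was lower, by at least 1.25-fold (limma adjusted p = 0.0476). It is given as a bound since an S42L group had no detection, so its p-value is no independent support. Scnn1a, as said above, passed the detection filter only through S42L cells. The remaining 1 fibroblast and 1 podocyte markers measured lay below 0, and these and 4 distal tubule markers were not called. Beside all marker counts, 20.6% of all named genes were higher and 19.5% lower in S42L cells. Pdgfra, Pdgfrb and Lum of the fibroblast list, Calb1, Pvalb and Foxi1 of the distal list, Emcn of the endothelial list, Ptprc, Itgam and Cd3e of the immune list and Nphs1 of the podocyte list were detected on 0 arrays. In the fibroblast list only Dcn was called higher. The summed fibroblast signal was 1634.1 to 2317.5 in S42L cells under DHT, against 26.2 to 64.4 in wild-type cells under DHT. The corresponding testosterone sums were 1365 to 1892.2 in S42L cells, against 11.6 to 73.4 in wild-type cells. The immune sum, from Csf1r, was 495.2 to 755.2 and 708.7 to 985.1 in S42L cells under DHT and testosterone, against 260.7 to 377.5 and 278.6 to 367.6 in wild-type cells. The endothelial sum was 1020 to 1037.6 and 1023.5 to 1124.3 in S42L cells in the same order, against 459.2 to 472 and 314.9 to 718.1 in wild-type cells. For the podocyte list it was 685.2 to 877.6 and 949.2 to 1131.5 in S42L cells, against 384.6 to 509 and 335.6 to 563.2 in wild-type cells. Each of these sums was higher on every S42L array than on any wild-type array. The distal tubule sums came closer, at 1256.9 to 1542.8 and 1264.4 to 1455.3 in S42L cells, against 1080 to 1229.3 and 1004.8 to 1288.3 in wild-type cells. The part of these markers in the differences between the lines was not tested.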

How the data were processed

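Total RNA was hybridized to 12 bead arrays. Per the file headers, the deposited values are each probe's mean bead intensity, linear and not yet normalized or corrected, with a detection p-value that compares it with negative control beads. The submitters' processing notes name BeadStudio (version not given in the sources used here). A table of processed intensity values, deposited by the authors with no steps stated, served as an alternative. The neqc function of limma 3.58.1 (R 4.3.3) corrected the background through the detection p-values, added 16 and quantile-normalized the log2 signals. Quantile normalization would remove a shift of most transcripts. A probe was tested if at least 3 of the 12 arrays detected it (p under 0.05). Mean signals ran from 560.2 to 707.4 per array, and 17314 to 19204 probes were detected; the number of arrays limits the precision. lmFit and eBayes were fitted with 1 coefficient for each of 4 groups (8 residual and 4.32 prior degrees of freedom), and 6 two-sided contrasts were adjusted by Benjamini-Hochberg over probes. The fit was tested on simulated data. A gene is read by its brightest probe. Bounds ("at least") set the brighter mean against, per dim array, either the probe's own value or that of the dimmest detected probe, whichever is higher, and over both androgens they are used where a line had a group with no detection. The probe annotation gives 1 symbol to 34885 probes, several to 18 and none to 10378. The genes, lists and markers were chosen with earlier results of these data known. Named were all 8 genes with every probe, the receptors and Hsd11b genes, and of each list at most 3 called genes of largest difference in each direction (Fkbp4 through the paralogs), with the uncalled ones of the repressed list chosen after their values were seen. Alternatives were median scaling, an offset of 50, the authors' values, no and a stricter detection filter, the mean of a gene's probes, replicate and chip blocks, and leaving out each array. The mouse Shbg probe was detected on 0 of 12 arrays and checks nothing about the human transgenes.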

Additional observations from a re-analysis of the deposited data

How the results depend on the processing

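Of 805 values of single genes under alternatives, 761 kept their direction and side of the threshold, 18 lost and 2 gained a call, and 24 changed sign, none of them a called value. The changed signs were Per1 under DHT (0.029) and Fkbp5 under testosterone (0.095) with median scaling, and, with the mean of its probes, Tsc22d3 for DHT minus testosterone in S42L cells (0.080) and for the interaction (0.20). Leaving out each array gave Fkbp5 ranges of -0.036 to 0.053 between lines over both androgens, -0.058 to 0.12 under DHT, -0.066 to 0.023 under testosterone, -0.069 to 0.11 and -0.065 to 0.021 for DHT minus testosterone in S42L and wild-type cells, and -0.043 to 0.14 for the interaction. The same gave -0.043 to 0.45 for Per1 and -0.045 to 0.070 for Klf9 (DHT minus testosterone in wild-type cells), and -0.035 to 0.46 for Per1 and -0.16 to 0.013 for Tsc22d3 (interaction). The genes called between the lines numbered 4 to 6 over both androgens, 2 to 3 under DHT and 2 to 4 under testosterone over all alternatives, with 2 under testosterone without S42L testosterone replicate 2 or wild-type testosterone replicate 2. Median scaling called 7226 probes in place of 7363 over both androgens, 65.6% in place of 49.1% of them higher, 66.5% in place of 50.9% under DHT and 70.3% in place of 51.8% under testosterone, and put the median of all probes at 0.06 in place of -0.02. The androgen counts are small and unstable: in S42L cells 52 probes, and 113 with median scaling, 229 with offset 50, 30 with the authors' values, 29 with all probes, 159 with the stricter filter, 5 with the replicate block and 2 to 196 without 1 array (196 without wild-type testosterone replicate 3), and in wild-type cells 14 probes, and 9, 54, 4, 9, 28, 8 and 4 to 14 in that order. The interaction called 1 probe, 2 with offset 50 and 0 with the mean of probes. Replicate numbers gave little sign of pairing the arrays. Deviations from the group means correlated at -0.05 to 0.12 between same-numbered arrays (1 of 18 pairs over 0.1), and 4 of 12 arrays correlated best with their own number. With 3 arrays per group this cannot exclude a pairing. With the replicate block 7210, 4268 and 4391 probes were called between the lines over both androgens, under DHT and under testosterone, and of the 8 genes the Tsc22d3 call under testosterone was lost (0.37, adjusted p = 0.0681).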
